A study of Homo sapiens with 6 samples.

Results

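The clustered protocadherin genes lie side by side on the long arm of chromosome 5 as the PCDHA, PCDHB and PCDHG clusters. The listed regions of this locus were those with a midpoint between 140.15 and 140.9 Mb in build hg19. Of the 61250 distinct regions in the 4 peak lists of the series, 18 met this rule. They comprised 2 NeuroD1 and 4 H3K4me3 regions of H82 and 1 NeuroD1 and 11 H3K4me3 regions of H524. The span was divided into alpha (140.15 to 140.4 Mb), beta (140.42 to 140.63 Mb) and gamma (140.7 to 140.9 Mb), which leaves 20.0 kb between alpha and beta and 70.0 kb between beta and gamma. The 200 kb on each side served as the comparison and held 22 regions.

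H82 and H524 are established human small cell lung cancer cell lines, and both were grown untreated. Chromatin immunoprecipitation sequencing was done in each line with an antibody against NeuroD1, a neurogenic basic helix-loop-helix factor that binds E-boxes, and with one against H3K4me3, a histone mark of active promoters. An input library of each line without antibody completed the 6 libraries, and the inputs were not analysed here. With 1 library per line and antibody there is no spread between replicates, so no p-value is given. Intervals are 95% intervals that cover counting error only, and neighbouring regions are not independent. The peak lists carry no read totals, and sequencing depth is therefore unknown.

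Clustered protocadherins are cell adhesion proteins of the cadherin family that are known for giving single neurons a surface identity. In the alpha and gamma clusters each variable exon has its own promoter and is spliced to constant exons shared by the cluster, whereas beta genes are encoded by a single large exon. In neurons, most alternate promoters are known to be chosen at random in each cell, and promoter choice involves DNA methylation, CTCF, cohesin and distant enhancers. Promoters in use generally carry H3K4me3, also in these clusters.

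The RefSeq promoter table used here (build GRCh38.p14) held promoters for 47 of the 53 protein-coding clustered protocadherin genes. These were 13 of 15 alpha, 14 of 16 beta and 20 of 22 gamma genes, with 52 promoter entries in all. Each entry spans 250 bases before to 50 bases after the start of a transcript. The regions of the peak lists are in hg19 and were not placed on these genes, so the sequences show the promoters of the locus and not the bases under a region. Shown are the 120 bases directly before the start for the first 2 genes of each cluster in table order that hold the letters CGCT, the core of the element shared by most clustered protocadherin promoters. Each lies on the plus strand of chromosome 5, and capitals mark CGCT on either strand. A match of these letters alone does not show the element.
PCDHA1: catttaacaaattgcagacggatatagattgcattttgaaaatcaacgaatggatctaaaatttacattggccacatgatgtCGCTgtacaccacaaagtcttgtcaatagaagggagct
PCDHA2: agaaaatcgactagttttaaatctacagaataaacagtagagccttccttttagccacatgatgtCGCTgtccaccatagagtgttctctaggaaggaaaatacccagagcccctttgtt
PCDHB1: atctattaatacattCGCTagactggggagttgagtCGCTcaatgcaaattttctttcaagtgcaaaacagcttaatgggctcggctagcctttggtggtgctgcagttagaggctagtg
PCDHB2: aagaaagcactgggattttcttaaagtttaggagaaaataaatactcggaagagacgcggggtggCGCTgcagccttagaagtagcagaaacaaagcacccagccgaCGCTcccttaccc
PCDHGA1: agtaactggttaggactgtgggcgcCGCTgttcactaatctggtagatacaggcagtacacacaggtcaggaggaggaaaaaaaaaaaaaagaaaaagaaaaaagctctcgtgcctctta
PCDHGA2: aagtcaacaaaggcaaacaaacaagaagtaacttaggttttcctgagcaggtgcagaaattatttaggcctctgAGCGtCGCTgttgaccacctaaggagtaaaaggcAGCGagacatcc

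The CGCT letters, searched on both strands, were found in 51 of the 52 protocadherin promoters (98.1%), against 24584 of all 35116 promoters of the table (70.0%). PCDHA1 and PCDHA2 share a longer run around these letters. The most frequent run of 12 bases among the alpha promoters, CATGATGTCGCT, was present in 8 of 13 (PCDHA1, PCDHA2, PCDHA4 to PCDHA8 and PCDHA12), 46 to 89 bases before the start, and in no other promoter of the table. Among the beta promoters, GGTGGCGCTGCA, 1 of 2 equally frequent runs, was present in 10 of 14 and in 15 of the whole table. PCDHB1, printed above, is not among these 10, although it holds CGCT. In the gamma A promoters, AGCGCCGCTGTT, 1 of 7 equally frequent runs, was present in 4 of 11, those of PCDHGA7 to PCDHGA10. For gamma B the run taken, 1 of 2 equally frequent, was present in 6 of 11 promoters and in 17 of the whole table. For gamma C the run taken, 1 of 145 equally frequent, was present in 2 of 3 promoters, both of PCDHGC4. Neither the gamma B nor the gamma C run holds the core letters, whereas the alpha, beta and gamma A runs do. All of these runs were sought after the promoters had been read. They were picked as the most frequent in these paralogous genes, which share descent, so their frequency is a description.

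E-boxes, the class of sites that NeuroD1 binds, have the letters CANNTG, which were found in 29 of 52 protocadherin promoters (55.8%) and in 68.7% of all promoters. By cluster the counts were 10 of 13 for alpha (76.9%), 9 of 14 for beta (64.3%) and 10 of 25 for gamma (40.0%). The form CAGATG, searched on both strands and a subset of CANNTG, was found in 7 of 52 (13.5%) against 14.7% of the table. CAGCTG, another subset, was found in 6 of 52 (11.5%) against 17.9%. In the printed PCDHA1 and PCDHA2 promoters, CATGATGTCGCT overlaps a CACATG, so these matches are not separate.

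NeuroD1 was listed at few places in the protocadherin locus, and H3K4me3 had more listed regions in H524 than in H82, although not beyond counting error. Per Mb of the span there were 2.67 NeuroD1 regions in H82 (0.323 to 9.63, exact Poisson) and 1.33 in H524 (0.0338 to 7.43). Over all chromosomes there were 1.31 in H82 and 7.01 in H524, so the count in H82 was not below its general density. H3K4me3 had 5.33 regions per Mb in H82 (1.45 to 13.7) and 14.7 in H524 (7.32 to 26.2). Together the H3K4me3 regions covered 2.50 kb of the 750.0 kb in H82 and 5.44 kb in H524. The map of regions by position shows that most of them lie in a few groups with long empty stretches between.

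**Figure D1:**
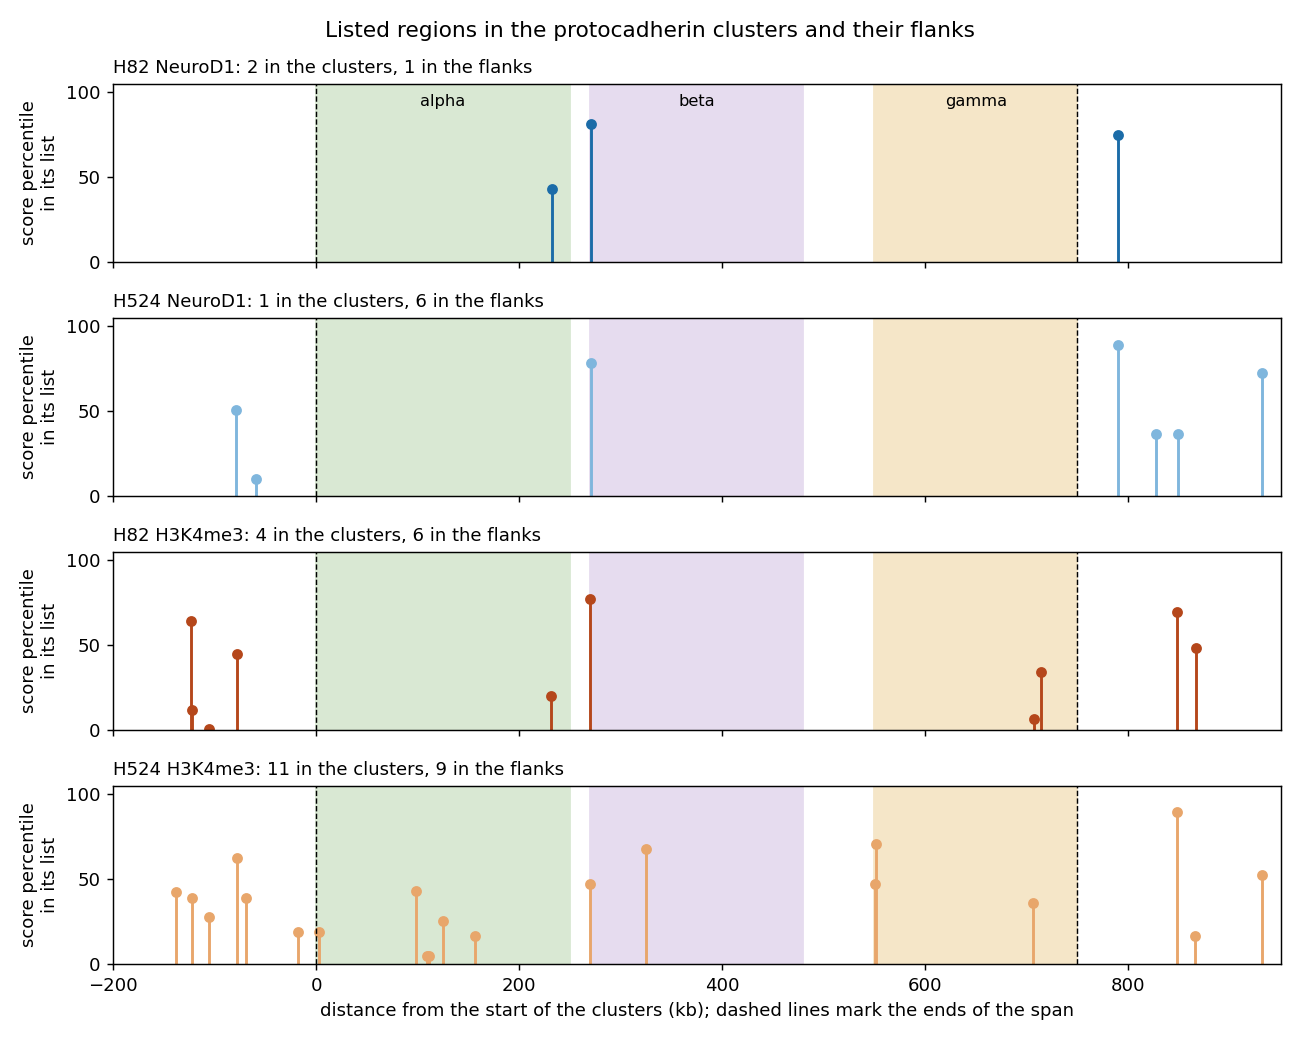
Score percentile of each region within its own list (vertical axis) against the distance of its midpoint from the start of the clusters in kb (horizontal axis), 1 panel per list with its numbers of regions, shading for alpha, beta and gamma and dashed lines at the ends of the span. The lists meet near 270 kb at the start of beta, and 6 H524 H3K4me3 regions stand in alpha, where H82 has 1.

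The only place in the locus where all 4 lists came together was at the boundary between alpha and beta. Regions of different lists were joined into a site where no more than 1 kb separated them, which gave 12 sites in the span. Of these, 9 held 1 list (75%), 2 held 2 lists (16.7%) and 1 held all 4 (8.33%). Over all chromosomes the shares of 33794 sites were 67.3% with 1 list, 21.9% with 2 and 2.26% with all 4, so the share with 1 list was near the general one. The site ran from 140419263 to 140421192 and was 1.93 kb long.

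At this site the NeuroD1 region of H524 extended from 140419664 to 140421192 on chromosome 5, a width of 1529 bp. Its score was 7.72, rank 4410 of the list (percentile 78.2). The score is the authors' value for a region, read as the −log10 of an adjusted p-value, and is used only to rank regions within a list. The H82 NeuroD1 region from 140420501 to 140420782 (282 bp, score 6.76, percentile 81.1) lay wholly inside it and took up 18.4% of its width. Both NeuroD1 regions thus stood in the upper part of their lists.

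Both H3K4me3 regions of this site had their midpoints on the alpha side of the NeuroD1 midpoints. In H82, H3K4me3 was listed from 140419263 to 140420479 (1217 bp, 2 summits, score 6.01, percentile 77.3), the widest and highest-scoring of its 4 regions in the locus. The H524 region from 140420016 to 140420320 (305 bp, score 3.52, percentile 47.0) lay wholly inside the H82 one and covered 25.1% of it. The H82 H3K4me3 region shared 816 bp with the H524 NeuroD1 region, and the H524 H3K4me3 region lay inside that NeuroD1 region. In H82 the pair only adjoined, with 21 bases between the end of H3K4me3 and the start of NeuroD1. The midpoint of the H82 H3K4me3 region fell 129 bp short of the stated start of beta and those of the other regions 167 to 641 bp past it, so the site is split by the boundary and belongs to no subcluster alone.

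A second pairing was found in alpha in H82. NeuroD1 was listed from 140381711 to 140381992 (282 bp, score 3.26, percentile 42.9), and H3K4me3 from 140381326 to 140381618 (293 bp, score 2.14, percentile 20.2). The 2 regions were separated by 92 bases and did not overlap. H524 had no region of either antibody here. Its nearest was the NeuroD1 region at the start of beta, 37.7 kb from the H82 NeuroD1 region. The drawing of both sites shows that H82 H3K4me3 lay on the same side of H82 NeuroD1 in each.

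**Figure D2:**
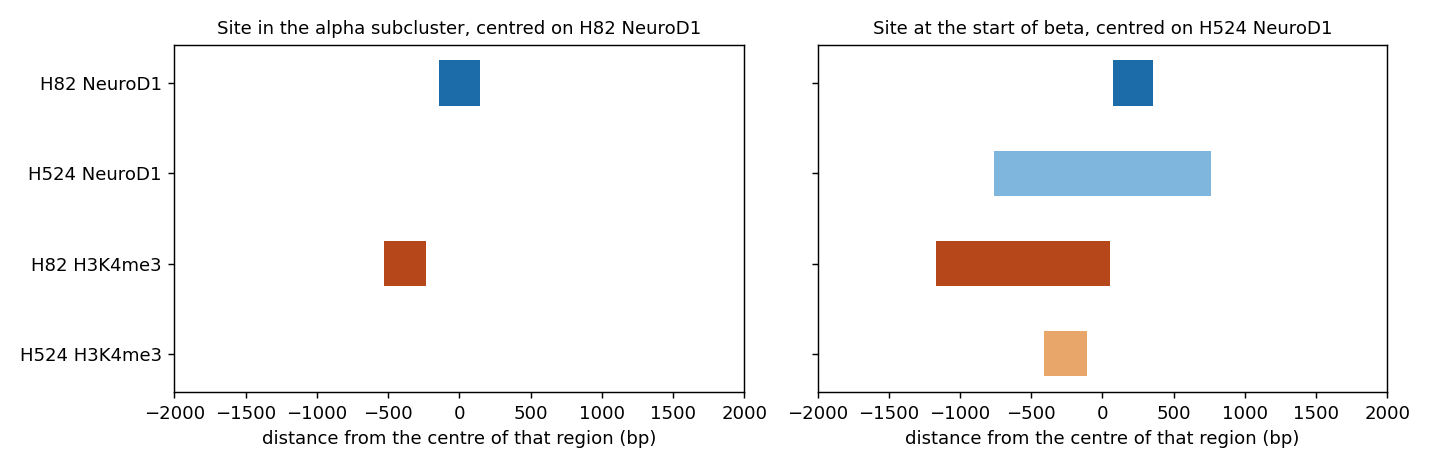
Regions of the 4 lists (rows) drawn to scale around the centre of a NeuroD1 region, with the distance from that centre in bp on the horizontal axis; left, the alpha site with the H82 regions 92 bases apart, and right, the site at the start of beta with regions of all 4 lists. The H82 NeuroD1 bars stand beside, not on, the H82 H3K4me3 bars, while the H524 NeuroD1 bar spans the H524 H3K4me3 bar.

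The locus had 1 of its 2 H82 NeuroD1 regions in common with H524, where 53.6% of the whole H82 list overlapped a NeuroD1 region of H524. The sole NeuroD1 region of H524 in the locus was shared, against 9.98% of its whole list. Neither H82 NeuroD1 region overlapped H3K4me3 of its line (29.4% of the list), whereas the H524 region did (16.0% of the list). Both H82 regions were within 1 kb of H3K4me3 without overlapping it, a position that 9.55% of the H82 list had, and this measure was chosen after the distances had been seen. Seen from the mark, 0 of 4 regions of H82 and 1 of 11 of H524 had NeuroD1 of their own line on them, with 6.34% and 18.0% over the whole lists. Counts of 1 and 2 regions leave these shares nearly unbounded, as for the 1 of 2 (exact Clopper-Pearson interval 1.26 to 98.7%).

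In alpha, H524 carried 6 H3K4me3 regions and H82 carried 1, and none of the 6 overlapped an H82 region. Over the whole H524 list 52.9% overlapped one, and among regions below the median score 36.1% did. Alpha holds PCDHA1 to PCDHA13 and the C-type genes PCDHAC1 and PCDHAC2, and C-type genes are generally expressed more evenly across neurons than the alternate ones. The H524 region nearest to the start of the span was at 140152395 to 140152842 (448 bp, score 2.09, percentile 18.9), 2.62 kb inside it. Another 4 regions followed each other with gaps of 1.29 to 13.6 kb, at 140248581 to 140248935 (355 bp, percentile 43.3), 140258888 to 140259273 (386 bp, percentile 4.68), 140260562 to 140260879 (318 bp, percentile 4.68) and 140274443 to 140275138 (696 bp, percentile 25.4). The last, from 140305983 to 140306437, was 455 bp wide with a score of 2.06 (percentile 16.5).

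All 6 alpha regions of H524 scored below the median of their list, and 5 of them were narrower than its median width. Their median score was 2.08 and their median percentile 17.7, with a highest score of 3.48, and their median width was 417 bp against 526 bp for the list. The distance to the nearest H82 H3K4me3 region was between 74.9 and 132 kb. The nearest NeuroD1 region of H524 was 61.6 to 160.4 kb away, and the whole of alpha held no H524 NeuroD1 region. The H524 to H82 ratio of H3K4me3 counts in alpha was 6 with an exact interval of 0.728 to 276, which includes equal counts.

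The beta cluster was nearly without listed regions apart from the site at its start. H524 had 1 further H3K4me3 region there, from 140474233 to 140474602 (370 bp, score 5.10, percentile 68.0), and H82 had none. From 140474603 to 140699979, a stretch of 225 kb, no list had a region. This was the longest empty stretch of the locus for all lists together and takes in most of beta, with its series of single-exon genes, and the interval between beta and gamma. For H82 H3K4me3 alone the empty stretch ran for 437 kb, from 140420480 to 140857389, and for NeuroD1 it ran from the start of beta to the end of the span in both lines, 479 kb.

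Gamma held H3K4me3 in both lines and NeuroD1 in neither. It contains the A-type and B-type alternate genes, followed by the C-type genes PCDHGC3, PCDHGC4 and PCDHGC5. At its far end, H524 had a region from 140855630 to 140856859, which at 1230 bp was its widest in the locus (score 2.89, percentile 36.1). The H82 region from 140857390 to 140857672 (283 bp, score 1.49, percentile 6.42) began 530 bases further on and did not overlap it. A second H82 region, from 140864159 to 140864869 (711 bp, score 2.84, percentile 34.5), was 7.30 kb from the nearest H3K4me3 region of H524. At this end of gamma both lines therefore had H3K4me3 near each other, but no base in common.

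Another 2 H524 H3K4me3 regions counted to gamma lay at its boundary. They extended from 140699980 to 140700290 (311 bp, score 3.52, percentile 47.0) and from 140700844 to 140701409 (566 bp, score 5.37, percentile 70.6, the highest of the 11). Their midpoints were 134 and 1126 bp past the stated start of gamma. In the gene order of the RefSeq table, SLC25A2, a mitochondrial carrier, and TAF7, a subunit of the general transcription factor TFIID, stand between PCDHB15 and PCDHGA1, so a region at this boundary need not belong to a protocadherin gene. Leaving out regions within 3 kb of an end of the span or of a subcluster, a choice made after the positions had been seen, lowered the H524 H3K4me3 count from 11 to 7 and that in gamma from 3 to 1, while H82 H3K4me3 went from 4 to 3.

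**Figure D3:**
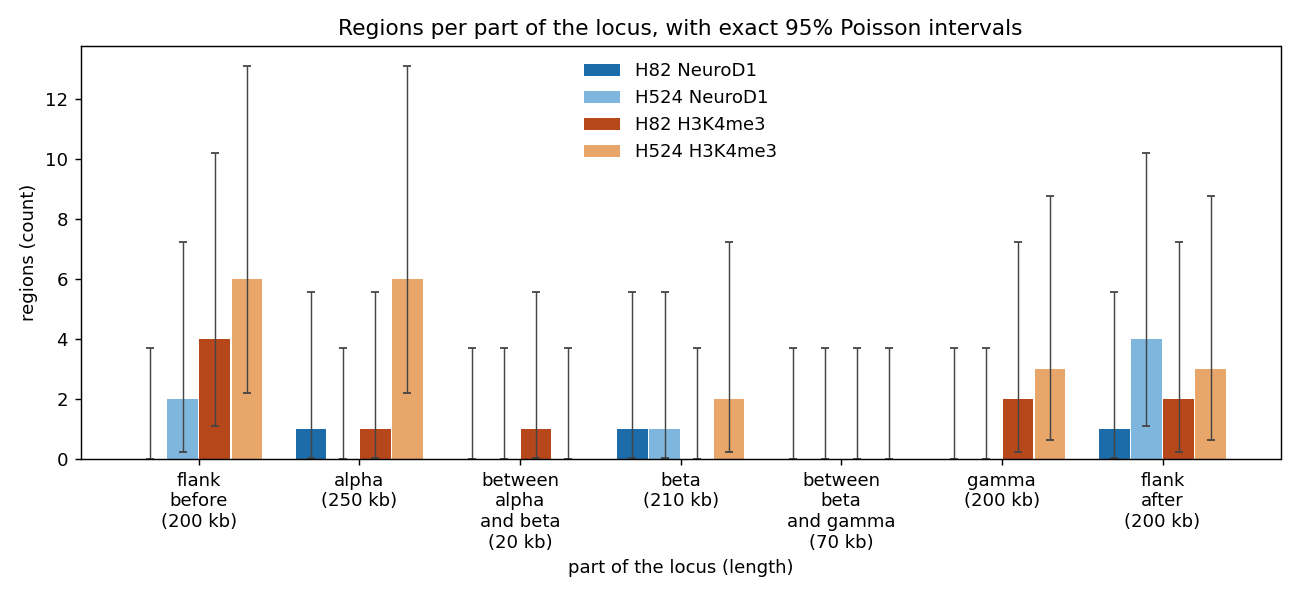
Number of regions (vertical axis) in each part of the locus and in both 200 kb flanks (horizontal axis, with lengths), for the 4 lists, with exact 95% Poisson intervals as error bars that cover counting error only. H524 H3K4me3 has 6 regions in alpha, 2 in beta and 3 in gamma, no list has a region between beta and gamma, and the intervals of both lines overlap in every part.

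Over the whole span H524 had 11 and H82 had 4 H3K4me3 regions, a ratio of 2.75 (0.815 to 11.8), whereas the whole lists differed by only 1.02-fold. In both flanks together the counts were 9 and 6. For NeuroD1 the order was opposite, with 1 region in H524 and 2 in H82 although the H524 list was 5.34-fold longer. Neither difference between the lines went beyond counting error.

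The H3K4me3 regions of the locus were seldom at the same place in both lines. Of the H82 regions, 1 of 4 overlapped H3K4me3 of H524, against 52.4% of the whole H82 list, and of the H524 regions, 1 of 11 (9.09%, 0.230 to 41.3) overlapped H3K4me3 of H82, against 52.9% of the whole H524 list. In the flanks the shares were 5 of 6 and 5 of 9. The difference between locus and flanks was −46.5 percentage points for H524 (Newcombe interval −73.1 to −5.78) and −58.3 points for H82 (−82.9 to 1.62). Against the whole lists it was −43.9 points for H524 (−51.4 to −15.2) and −27.4 points for H82 (−47.8 to 17.6). The H524 difference thus exceeded counting error on both comparisons, and the H82 difference did not. With 4 H82 regions in the span against 11 of H524, only a few H524 regions could overlap one. The H524 share and the ratio of counts rest on the same regions, and that ratio did not go beyond counting error. The part of the counts in the low share was not tested. Counting regions within 1 kb as well, the shares were 2 of 4 in H82 (67.7% of the list) and 2 of 11 in H524 (63.2% of the list). The H524 difference was then −45.0 points from the list (−58.0 to −15.5) and −37.4 points from the flanks (−66.1 to 3.93), the latter no longer beyond counting error.

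Scores of H3K4me3 regions were mostly below the list median in the locus, and over the whole lists lower scores went with less sharing. The median percentile of the H3K4me3 regions was 27.4 in H82 and 36.1 in H524, and 1 of 4 and 2 of 11 reached the median score of their list. In the flanks the median percentile was 46.8 in H82 and 38.9 in H524, and 3 of 6 and 3 of 9 reached the median score. Low scores in H524 were thus not particular to the locus. Among all H524 H3K4me3 regions below the median score, 36.1% overlapped one of H82, and at or above it 69.7% did. In the locus, 1 of the 9 H524 regions below the median and 0 of the 2 at or above it were shared. Corresponding shares for H82 were 34.7% and 67.4% over the list and 0 of 3 and 1 of 1 in the locus. The part of score in the low sharing was not tested.

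In the 200 kb flanks, H3K4me3 was denser per Mb than in the span in both lines by the counts, though not beyond counting error. In the order of the RefSeq table, the genes before PCDHA1 are IK, WDR55, DND1, HARS1, HARS2 and ZMAT2, and those after PCDHGC5 are DIAPH1, HDAC3, RELL2, FCHSD1 and ARAP3, without their distances being used. H3K4me3 had 15.0 regions per Mb in the flanks in H82 and 22.5 in H524. The ratio of the span to the flanks was 0.356 (0.0738 to 1.5) in H82 and 0.652 (0.246 to 1.78) in H524, so neither was lower beyond counting error. Compared with chromosome 5 as a whole, from its first to its last listed region, the span had 1.3 times (0.354 to 3.35) the H3K4me3 regions per Mb in H82 and 2.66 times (1.32 to 4.78) in H524. Compared with all chromosomes the ratios were 0.861 (0.235 to 2.20) and 2.32 (1.16 to 4.15). Against these wider references the H524 span was thus denser beyond counting error, whereas the H82 intervals include 1.

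NeuroD1 of H524 was sparser in the span than beside it. Its 1 region contrasts with 6 in the flanks, a ratio per Mb of 0.0889 (0.00193 to 0.733). Relative to chromosome 5 the ratio was 0.198 (0.00500 to 1.1), and relative to all chromosomes 0.190 (0.00482 to 1.06). Both of these intervals include 1. The flanks held 15.0 H524 NeuroD1 regions per Mb (5.50 to 32.6), against 7.01 over all chromosomes. In H82, 2 regions in the span and 1 in the flanks gave a ratio of 1.07 (0.0555 to 62.9). The H82 ratio was 4.08 (0.489 to 15.1) relative to chromosome 5 and 2.03 (0.246 to 7.35) relative to all chromosomes. By base pairs covered in place of counts, the ratios were 0.340 in H524 and 0.652 in H82. The nearest NeuroD1 region after the span was shared by the lines, at 140939811 to 140940547 in H524 (score 11.2, percentile 88.7) and at 140940157 to 140940617 in H82 (score 5.82, percentile 75). From this place the distance to H3K4me3 was 57.6 kb within H524 and 56.8 kb within H82, whereas each NeuroD1 region of the locus had H3K4me3 of its line on or beside it. So had 3 of the 6 H524 NeuroD1 regions in the flanks, with overlap or gaps of 3 and 91 bases. Over the whole H82 NeuroD1 list, 29.4% overlapped H3K4me3 of the line and another 9.55% lay within 1 kb of it. In the H524 list 16.0% overlapped it, and the share beside it is not given here.

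Windows of the same length set these counts against the rest of the genome. Of 3567 consecutive windows of 750.0 kb that held a region of any list, 432 (12.1%) had 11 or more H524 H3K4me3 regions and 1774 (49.7%) had 4 or more of H82. For NeuroD1, 896 windows (25.1%) had 2 or more regions of H82 and 3195 (89.6%) had at least 1 of H524, whose median window held 4. These are positions in a distribution and carry no test, since neighbouring windows are not independent.

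**Figure D4:**
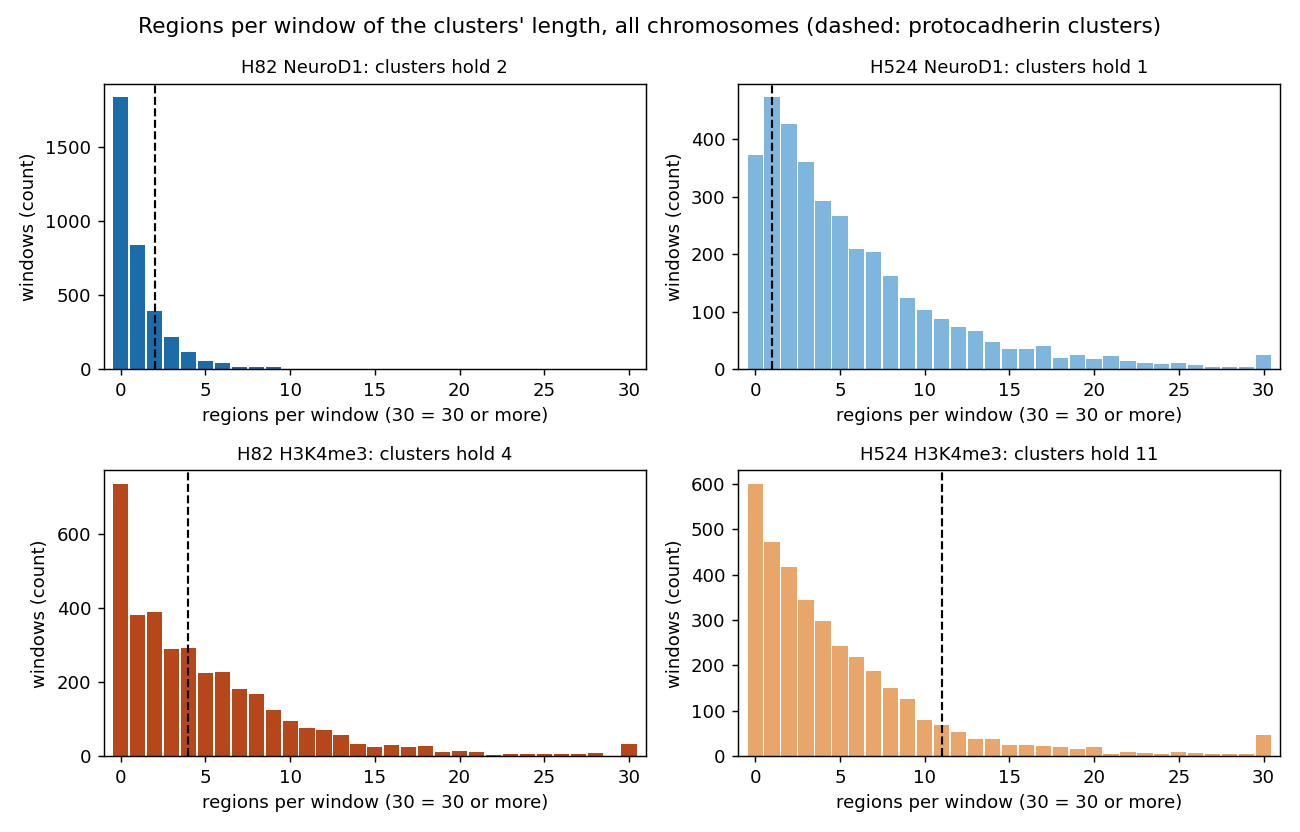
Number of windows of 750.0 kb (vertical axis) by the number of regions they hold (horizontal axis, with 30 standing for 30 or more), 1 panel per list, with a dashed line at the count of the protocadherin span. The span sits at 11 for H524 H3K4me3, above the median of 3, and at 1 for H524 NeuroD1, below the median of 4.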

How the data were processed

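The authors' peak lists of 4 libraries, each with chromosome, start, end, name and score, were analysed. Build hg19, MACS2 2.1.1 and Bowtie 1.1.2 come from the submitters' processing notes, as do Picard 1.118, SAMtools 1.9, Trimmomatic 0.38, R 3.5.1, ChIPseeker 1.18.0 and bcl2fastq 1.8.4, with no roles stated. Whether input was used, and the peak calling settings, is not given in the sources used here. Each of the authors' scores, as deposited, was taken to be the −log10 of an adjusted p-value from the values, since the lowest (1.304 to 1.308) lie just above 1.301, the −log10 of 0.05.

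Entries with identical intervals were merged, keeping the highest score. Coordinates are 1-based. An overlap needed 1 shared bp or more. Percentiles rank regions within a list. Computation used Python 3.11.15 with scipy 1.17.1, pandas 2.3.3 and numpy 2.4.6, figures matplotlib 3.10.9, and overlap counting was tested on simulated data. The rule named all regions of lists with 12 or fewer in the span, which covered all 18. Members, lists and measures were chosen with earlier results of these data known. Regions were not assigned to genes, so markers of the lines were not checked, gene lists of regulators and other protocadherins were not used, and no sequence under a region and no protein was read. Alternatives covered score, list length, overlap, flank length and base pairs covered. The linking of regions within 1 kb into sites and the shares by score were added after the data had been seen.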

Additional observations from a re-analysis of the deposited data

Results flagged for a closer look

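The density of NeuroD1 regions in the protocadherin span relative to its flanks had opposite signs in the 2 lines by counts of regions. The log2 ratio was 0.09 in H82 and −3.49 in H524, a difference of 3.58, which was not tested. The H82 ratio of 1.07 has an interval of 0.0555 to 62.9, and by base pairs covered the ratio was below 1 in both lines (0.652 in H82 and 0.340 in H524). It rests on 2 and 1 regions in H82 and on 1 and 6 in H524.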

How the results depend on the processing

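Of 50 recomputed values, 33 stayed within the counting interval or within 1.5 times the count. Among regions not below their list's median score, the span held 1 H82 NeuroD1, 1 H82 H3K4me3 and 2 H524 H3K4me3 regions. With both lists of an antibody at equal length, no H524 NeuroD1 region (0) remained in the span. Without regions within 3 kb of an end, an alternative added later, the counts were 1 for H82 NeuroD1, 0 for H524 NeuroD1 and 7 for H524 H3K4me3. Requiring overlap of 50% of both regions made the share found in the other line 0% for every list, and counting regions within 1 kb made it 50% for H82 and 18.2% for H524 H3K4me3. With both lists limited to their upper scores, so that a partner below its median no longer counts, that share was 100.0% for H82 NeuroD1 and 0% for H3K4me3 of both lines. NeuroD1 on H3K4me3 became 100.0% in H82 within 1 kb, and 0% in H524 with the midpoint inside H3K4me3 or above the median scores. These shares rest on 1 to 11 regions. Over the whole lists, 67.7% of H82 and 63.2% of H524 H3K4me3 regions were within 1 kb of the other line. Of the whole H82 NeuroD1 list, 29.4% overlapped H3K4me3 and another 9.55% lay within 1 kb of it. For the other settings no whole-list share is given here, so those shares cannot be set against the general one. Ratios to the flanks were computed with flanks of 500 and 1000 kb and by base pairs covered, and each stayed within its counting interval. By base pairs the ratio turned below 1 for H82 NeuroD1 (0.652) and was 0.340 for H524 NeuroD1. With flanks of 500 and 1000 kb these were 1.33 and 1.07 for H82 and 0.103 and 0.111 for H524. No paired analysis was possible because each group has 1 library and no result comes from a test.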
